A study of Mus musculus with 11 samples.

Results

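Nes and Gh are 2 of the 25827 genes in the count matrices of a single-nucleus RNA sequencing series on the mouse central nervous system, and they were taken here by symbol from the feature lists, in which each symbol stands once. The pair was chosen by its UMI counts per library in these matrices, which an earlier look had shown to be higher in mice that carry a Nestin-Cre transgene, so levels of the pair by genotype are a description and carry no test. The question was which cell lineages held these transcripts in the Cre-carrying mice and in which they were not detected.

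Every library was made from sorted Hoechst+ nuclei of male C57BL/6 mice aged 8 to 12 weeks, pooled from the cerebellum and brainstem of 1 hemisphere and the cord at C1-C2. All mice, controls included, carried loxP-flanked alleles of Il12rb2, the gene of a receptor subunit for interleukin-12: the Il12rb2fl/fl mice are called fl, and the NestinCre/+ Il12rb2fl/fl littermates are called NestinCre. Experimental autoimmune encephalomyelitis (EAE) had been induced with MOG35-55 in complete Freund's adjuvant and pertussis toxin, and tissue was taken at day 10, in 4 fl libraries (fl EAE 1 to 4) and 4 NestinCre libraries (NestinCre EAE 1 to 4). The remaining libraries came from naive mice, with 2 of fl (fl naive 2 and fl naive 3) and 1 of NestinCre (NestinCre naive 2). Run 1 held EAE libraries 1 to 3 of both genotypes, run 2 held EAE library 4 of both genotypes and fl naive 2, and the remaining naive libraries, 1 of each genotype, made up run 3. The number 4 was given here in accession order, because those labels carry none.

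Nestin, the protein of Nes, is an intermediate filament protein of neural stem and progenitor cells that is also made by endothelial cells, and most differentiated neurons and glia lack it. Growth hormone, the protein of Gh, is secreted by somatotrophs of the anterior pituitary, which was not part of the tissue taken. In the Nestin-Cre strain used by the study, B6.Cg-Tg(Nes-cre)1Kln/J, Cre recombinase is driven by rat nestin promoter and enhancer sequence, and the construct carries a human growth hormone sequence that is known to be transcribed. Recombination in that strain takes place in the embryonic neural progenitors, so that neurons, astroglia and oligodendrocytes descend from recombined cells. The matrices hold no feature for Cre or for the construct. Whether a unique molecular identifier (UMI, 1 counted RNA molecule) assigned to mouse Nes or Gh came from the mouse gene or from the construct cannot be told apart in these counts.

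In GRCm39 with the GENCODE annotation, Nes (ENSMUSG00000004891) lies on the plus strand of chromosome 3 from 87878385 to 87887758, and Gh (ENSMUSG00000020713) lies on the minus strand of chromosome 11 from 106191095 to 106192691. The matrices count reads over exons and introns together. RefSeq's promoter table holds Nes and not Gh. The 250 bases before the Nes start site (chr3:87970843-87971092, GRCm38.p6, plus strand) are shown because they are the mouse counterpart of the kind of sequence that drives the transgene, with the GC box GGGCGG, which stands on the other strand here, in capitals:
Nes promoter: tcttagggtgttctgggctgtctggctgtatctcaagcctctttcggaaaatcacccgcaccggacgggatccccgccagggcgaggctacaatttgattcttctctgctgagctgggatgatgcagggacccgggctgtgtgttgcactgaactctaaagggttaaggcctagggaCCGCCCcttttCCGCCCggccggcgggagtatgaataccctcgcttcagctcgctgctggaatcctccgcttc
In the 300-base window of the table, which runs from 250 bases before the start site to 50 bases after it, both strands were searched. The GC box matched 2 times, starting at positions -73 and -62 from the start site, and 35.7% of the 32851 promoters in the table hold it. TATAAA (13.6% of promoters), CCAAT (37.4%), ACAAAG (18.7%) and the E-box CANNTG (72.3%) had 0 matches in this window. GC content was 58.7%, against a median of 52.7% over the table.

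The deposited matrices held 189709 barcodes, of which 159655 nuclei were kept after quality limits and removal of doublets, 11652 to 18589 per library. Kept libraries had 33996596 to 63871600 UMIs, with median UMIs per nucleus of 1786 to 3144. Any 2 libraries shared 47 to 140 barcodes, and 0 barcodes positive for Nes, or for Gh, were shared between libraries. With so few shared barcodes and few positive nuclei, nothing is read from that 0. Nuclei fell into 15 classes named from marker genes, and 8827 nuclei (5.53%) stayed unnamed. A class name means nuclei like that type by its markers, so that granule cells are granule cell-like nuclei. Etv1, Chn2, Cadps2 and Il16 stood among the leading genes of every granule cluster, and the marker Gabra6 did in 6 of 7. Neither Nes nor Gh took part in the clustering. Levels relative to all RNA are given as CPM, the UMIs of a gene divided by all UMIs of the same nuclei and scaled to 1000000. Il12rb2, the floxed gene, stood at 11.3 to 16.3 CPM in the fl EAE libraries and 8.08 to 16.8 in the NestinCre EAE libraries. Counts over the whole gene, introns included, do not read the deleted part alone, so this checks no label.

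Nes was detected in every library and was low in all of them. The fl EAE libraries 1 to 4 held 4, 2, 8 and 3 Nes UMIs, which is 0.294, 0.135, 0.520 and 0.20 per 1000 nuclei (mean 0.287 ± 0.168, SD, n = 4). The NestinCre EAE libraries 1 to 4 held 29, 39, 33 and 53 Nes UMIs, which is 2.43, 2.64, 2.83 and 2.85 per 1000 nuclei (mean 2.69 ± 0.195, SD, n = 4). All 4 NestinCre EAE libraries lay above all 4 fl EAE libraries, and the log2 ratio of the group means was 3.23. In the naive mice, each fl library held 1 Nes UMI (0.0598 and 0.0695 per 1000 nuclei) and the NestinCre library held 66 (5.15 per 1000 nuclei, 95% Poisson interval 3.98 to 6.55). The single naive NestinCre library was the highest of the series for Nes. It has no replicate and shares its run with no EAE library, so naive state, run and library cannot be told apart in its value. Poisson intervals and limits here cover counting error only.

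Gh was at 0 in 4 of the 6 fl libraries and was detected in all 5 NestinCre libraries. The fl EAE libraries 1 to 3 held 0 Gh UMIs each, which allows up to 0.220, 0.203 and 0.195 per 1000 nuclei (3 counts per library), and fl EAE 4 held 32 (2.13 per 1000 nuclei). The NestinCre EAE libraries 1 to 4 held 63, 79, 38 and 173 Gh UMIs, which is 5.29, 5.35, 3.26 and 9.31 per 1000 nuclei (mean 5.80 ± 2.53, SD, n = 4). Each NestinCre EAE library lay above each fl EAE library. In the naive mice, fl naive 2 held 11 Gh UMIs (0.658 per 1000 nuclei), fl naive 3 held 0 (up to 0.209 allowed), and the NestinCre library held 34 (2.65 per 1000 nuclei). The naive NestinCre library was thus the lowest NestinCre library for Gh and the highest for Nes. NestinCre EAE 4 stood apart at the upper end, and without it the NestinCre EAE mean was 4.63 ± 1.19 (SD, n = 3).

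**Figure D1:**
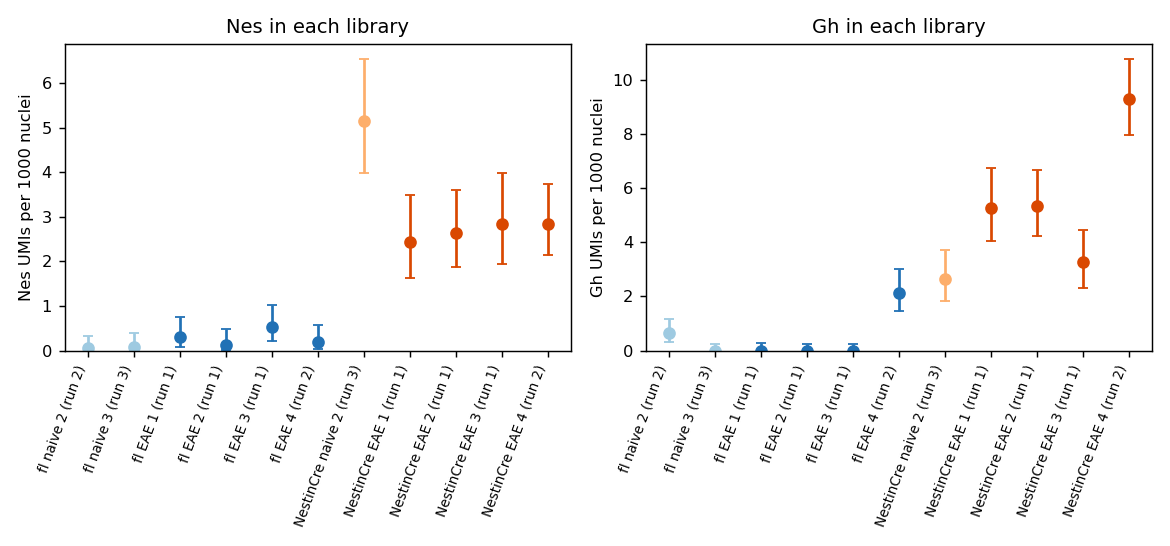
Nes UMIs (left) and Gh UMIs (right) per 1000 kept nuclei in each of the 11 libraries, with the run in brackets; points are single libraries and bars are 95% Poisson intervals. For Nes the NestinCre libraries lie between 2.43 and 5.15 and the fl libraries at or below 0.520, and for Gh the only fl libraries above 0 are the 2 of run 2.

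Ranked by the gap between the lowest NestinCre and the highest fl library in CPM over all nuclei, Nes had the widest gap (0.723 against 0.153, a ratio of 4.74) and Gh stood in 5th place (0.696 against 0.510, a ratio of 1.36). All 5 NestinCre libraries lay above all 6 fl libraries for 92 of 19270 genes (0.477%), Nes and Gh among them, and below them for 36 (0.187%). Nothing is read from these counts, because this contrast chose the pair. The gene next to Nes in that ranking was Acvrl1, an endothelial receptor of the TGF-β family, with a ratio of 1.70.

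Both fl libraries with Gh belonged to run 2. Over all deposited barcodes, fl EAE 4 held 48 Gh UMIs in 24 nuclei, with up to 10 in 1 nucleus, and fl naive 2 held 32 in 18 nuclei, with up to 9. In these libraries 66.7% and 59.4% of the Gh UMIs lay in nuclei with at least 2. Among kept nuclei, fl EAE 4 held 32 Gh UMIs in 16 nuclei and fl naive 2 held 11 in 10. In the NestinCre EAE libraries 1 to 4 the deposited counts were 72 UMIs in 69 nuclei, 109 in 104, 54 in 54 and 238 in 221, and in NestinCre naive 2 they were 40 in 38. There, 0% to 11.8% of the Gh UMIs lay in nuclei with at least 2. With nuclei of 2 or more Gh UMIs left out, a setting chosen after seeing the data, fl EAE 4 fell from 2.13 to 0.799 per 1000 nuclei and fl naive 2 from 0.658 to 0.538, and the NestinCre EAE mean fell from 5.80 to 5.26 and the NestinCre naive library from 2.65 to 2.34.

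**Figure D2:**
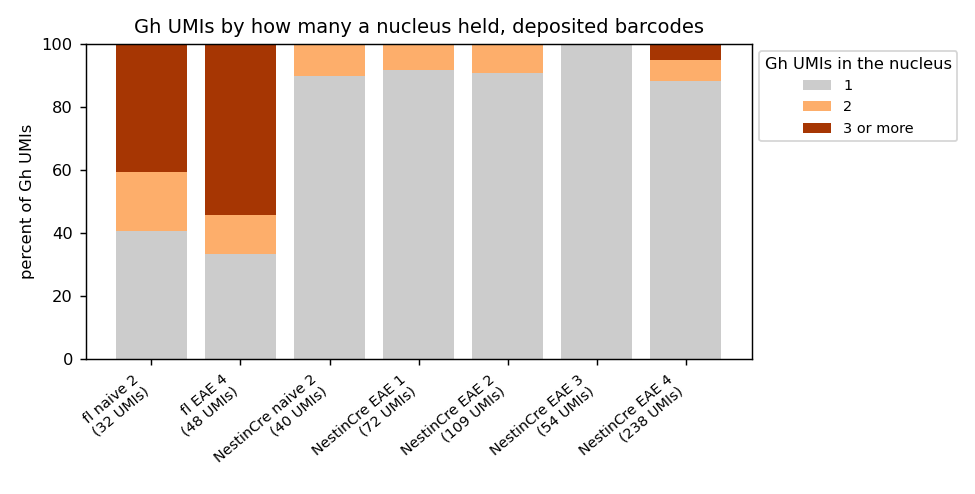
Percent of each library's Gh UMIs (vertical axis, all deposited barcodes) that lay in nuclei with 1, 2 or at least 3 Gh UMIs, for the 7 libraries with any; the number of Gh UMIs is under each name. Most Gh UMIs of the NestinCre libraries were single in their nucleus, and 33.3% and 40.6% were so in fl EAE 4 and fl naive 2.

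The Gh-positive nuclei of these fl libraries were not of 1 class. In fl EAE 4, 20 nuclei that passed the quality limits lay in 12 clusters, 10 of them in granule cells and 2 in mature oligodendrocytes, and 3 unnamed nuclei held 18 of the 38 UMIs. In fl naive 2, 17 such nuclei also lay in 12 clusters. Prl, the prolactin gene of another anterior pituitary cell, had 5 UMIs in NestinCre EAE 1, 3 in fl EAE 4, 2 in fl naive 2, 5 in NestinCre EAE 4 and 0 in the other libraries. Pomc, expressed in the pituitary and in the brain, had 409 UMIs in NestinCre EAE 4, the library with most Gh, and 65 to 144 in the other libraries. Of the deposited Gh-positive nuclei, 1 of 24 in fl EAE 4 and 2 of 221 in NestinCre EAE 4 also held Prl, and in fl EAE 4 this nucleus did not pass the quality limits. Run 2 also held NestinCre EAE 4, the library with most Gh, and no Gh-positive barcode was shared with it. It shared only 110 barcodes with fl EAE 4 and 140 with fl naive 2. With so few, an absence of shared positive barcodes was likely in any case and decides nothing. Passage of RNA between libraries was not tested. The part of RNA from outside the tissue in the Gh counts of run 2 was not tested. With run 2 left out, Gh was at 0 in all 4 fl libraries and at 2.65 to 5.35 per 1000 nuclei in the 4 NestinCre libraries.

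Nes and Gh were each counted in few nuclei, so few nuclei could hold both. Of the kept nuclei, 1 in NestinCre EAE 2 and 1 in NestinCre EAE 3 did. Whether the genes met in a nucleus more or less often than by chance was not tested. A UMI of either gene was present in 0.747%, 0.751%, 0.592% and 1.15% of nuclei of the NestinCre EAE libraries 1 to 4, in 0.726% of the naive NestinCre library, and in 0.00695% to 0.126% of nuclei of the fl libraries. For each Nes UMI there were 2.17, 2.03, 1.15 and 3.26 Gh UMIs in the NestinCre EAE libraries 1 to 4 and 0.515 in the naive one. These ratios of UMI counts compare libraries, and say nothing of the relative level of the genes.

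Granule cells, the small excitatory neurons of the cerebellar cortex, held most UMIs of both genes. Over the 5 NestinCre libraries they held 75.9% of 220 Nes UMIs and 76.2% of 387 Gh UMIs, and made up 64.8% of the nuclei and 47.2% of all UMIs. The NestinCre EAE libraries 1 to 4 had 3.03, 2.62, 3.56 and 3.65 Nes UMIs per 1000 granule nuclei (mean 3.21 ± 0.485, SD, n = 4), and the naive library had 5.74. In the 6 fl libraries together, 58400 granule nuclei held 2 Nes UMIs, both in fl EAE 2 (0.0342 per 1000, 95% Poisson interval 0.00415 to 0.124). Gh stood at 6.05, 6.64, 4.22 and 11.3 UMIs per 1000 granule nuclei in the NestinCre EAE libraries 1 to 4 (mean 7.06 ± 3.03, SD, n = 4) and at 2.98 in the naive one. The fl granule nuclei held 15 Gh UMIs, 11 in fl EAE 4 and 4 in fl naive 2, and outside run 2 they held 0 of 38005 nuclei (up to 0.0789 per 1000 allowed).

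No group of granule nuclei lacked either gene. The 7 granule clusters had 0.966 to 2.01 CPM for Nes and 1.72 to 4.14 CPM for Gh over the NestinCre libraries, and every cluster held at least 8 Nes UMIs. Positive granule nuclei were deeper than negative ones in every NestinCre library: median UMIs were 1960 to 3240 in Nes-positive nuclei against 1722 to 2747 in the others, and 2201 to 3531 in Gh-positive nuclei against 1721 to 2747. A deeper nucleus is more likely to yield a UMI of a rare gene. This difference was thus set by sampling, and nothing is read from it.

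Both genes were also counted in other neurons, with fewer UMIs. Granule cell sums of fl EAE and NestinCre EAE held the 7 mature oligodendrocyte markers together at 353 to 1160 and 566 to 1130 CPM. Mature oligodendrocytes themselves had 15200 to 16300 and 14100 to 16500. The part of RNA from granule cells in the Nes and Gh counts of this class and of all other classes was not tested. The class named other neurons here joins clusters of excitatory and of monoaminergic neurons with clusters in which markers of several neuron types, inhibitory ones among them, were close. Among the latter, a cluster of 414 nuclei scored highest for granule cells, with unipolar brush cells next. The class had 14 Nes UMIs in 5145 NestinCre nuclei (2.72 per 1000, 95% Poisson interval 1.49 to 4.57) against 5 in 6679 fl nuclei (0.749, 0.243 to 1.75). These intervals overlap, but they are pooled over nuclei and libraries and are no test between genotypes. Gh had 36 UMIs in NestinCre nuclei of the class (7.0 per 1000, 4.90 to 9.69) against 1 in fl nuclei (0.150). Each of the 5 NestinCre libraries had Nes and Gh in this class, at 1.34 to 5.55 and at 3.81 to 9.94 per 1000 nuclei. Molecular layer interneurons, the inhibitory neurons of the outer cerebellar cortex, had 4 Nes UMIs in 3061 NestinCre nuclei, 1 in each of 4 libraries, and 0 in 4668 fl nuclei (up to 0.643 per 1000 allowed). They had 7 Gh UMIs in NestinCre nuclei, in 3 of 5 libraries, and 0 in fl nuclei.

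Whether granule cells stood above the other neurons depended on the unit. Per 1000 nuclei the NestinCre EAE means were close, with 3.21 ± 0.485 in granule cells and 2.83 ± 1.86 in other neurons for Nes (SD, n = 4), and 7.06 ± 3.03 and 6.82 ± 2.59 for Gh. For Nes this rested on NestinCre EAE 2, with 5.55 in other neurons, where the remaining NestinCre EAE libraries had 1.34 to 2.23. Nuclei of other neurons were larger libraries, with a median of 9494 UMIs against 2154 in granule nuclei. In CPM, granule cells of the 5 NestinCre libraries had 1.14 to 1.93 for Nes and 1.01 to 5.35 for Gh, and other neurons had 0.113 to 0.591 and 0.276 to 0.827, so the ranges did not overlap. With each nucleus thinned to 1000 UMIs, 0.142% of 42959 granule nuclei and 0.0389% of 5139 nuclei of other neurons kept a Nes UMI (61 and 2 nuclei), and 0.263% and 0.117% kept a Gh UMI (113 and 6 nuclei). Unthinned, the shares were 0.365% and 0.253% for Nes and 0.631% and 0.661% for Gh. Thinning left out 2219 granule nuclei and 6 nuclei of other neurons that were too shallow.

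**Figure D3:**
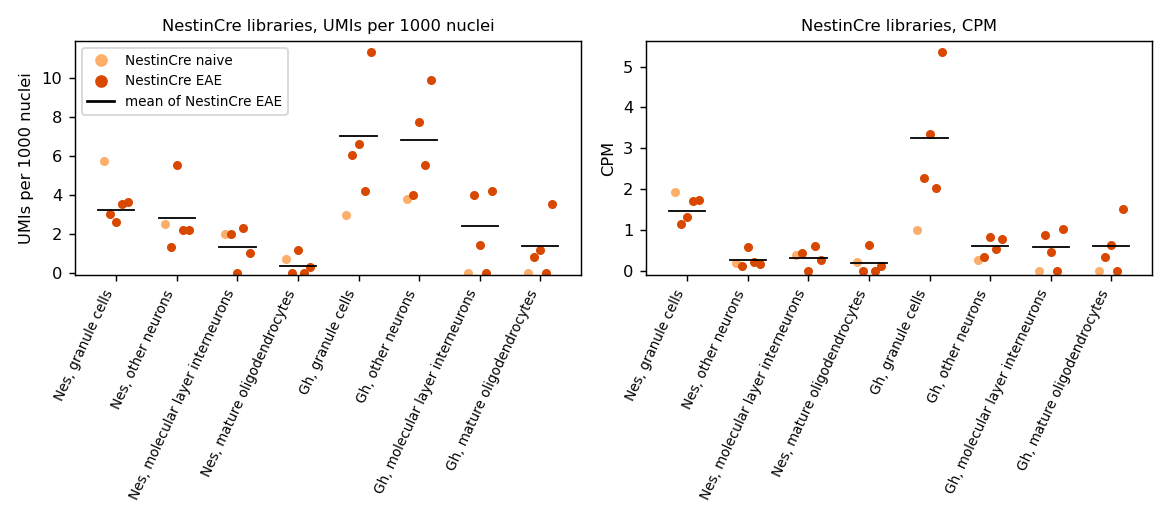
Nes and Gh in 4 classes of the 5 NestinCre libraries, per 1000 nuclei (left) and in CPM (right); points are libraries, with the naive library in the lighter colour, and lines are means of the 4 EAE libraries. Granule cells and other neurons have similar means on the left (3.21 and 2.83 for Nes, with NestinCre EAE 2 the highest for other neurons). On the right, granule cells lie above the other 3 classes for Nes.

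Purkinje cells, the output neurons of the cerebellar cortex, were the deepest class and had 0 UMIs of either gene, in 125 NestinCre and 305 fl nuclei. With a median of 13103 UMIs per nucleus, 0 counts allow up to 24.0 per 1000 nuclei and 1.66 CPM. The upper bound in CPM lay just above the Nes level of granule cells (1.58) and below their Gh level (2.79). Per 1000 nuclei the limit lay above the granule level of both genes (3.70 and 6.53), and in CPM it lay above the levels of other neurons (0.231 for Nes and 0.595 for Gh), so the counts of 0 do not set Purkinje cells apart from other neurons. Of the 125 nuclei, 1 came from NestinCre EAE 4. Unipolar brush cells, excitatory interneurons of the granular layer, had 0 Nes UMIs and 1 Gh UMI in 154 NestinCre nuclei.

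Mature oligodendrocytes, the myelin-forming cells, had few counts of either gene. They held 4 Nes UMIs in 9163 NestinCre nuclei (0.437 per 1000, 95% Poisson interval 0.119 to 1.12), 2 in NestinCre EAE 2 and 1 each in NestinCre EAE 4 and NestinCre naive 2, and 1 in 11575 fl nuclei (0.0864, 0.00219 to 0.481). These intervals overlap. Gh had 15 UMIs in NestinCre oligodendrocytes (1.64 per 1000, 0.916 to 2.70), of which 12 were in NestinCre EAE 4, and 6 in fl oligodendrocytes (0.518, 0.190 to 1.13), all in run 2. Outside run 2, Gh had 3 UMIs in 5756 NestinCre nuclei (0.521 per 1000, 0.107 to 1.52) and 0 in 7065 fl nuclei (up to 0.425 allowed). The class had nearly the depth of granule cells, with a median of 2138 UMIs. In the NestinCre EAE libraries its mean was 0.375 ± 0.571 Nes UMIs and 1.39 ± 1.51 Gh UMIs per 1000 nuclei (SD, n = 4), and in each of the 5 NestinCre libraries it lay below granule cells for both genes.

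Shares of nuclei with a UMI were set beside those of microglia. Microglia descend from yolk sac progenitors and not from the neuroectoderm. Whether they are free of transcripts of the construct was not tested. Gh was present in 0 of 1244 NestinCre microglia, at a median of 2113.5 UMIs per nucleus. This count allows up to 0.241%, a limit that the number of microglia sets and that is no measured background. The shares of NestinCre oligodendrocytes (0.164%) and molecular layer interneurons (0.229%) with a Gh UMI lay under that limit, and the shares of granule cells (0.631%) and other neurons (0.661%) lay above it. Other neurons were far deeper than microglia, with a median of 9494 UMIs, and depth raises such shares for either gene. Nothing is therefore read from the place of other neurons. Of the other classes from outside the neuroectoderm or of mixed origin in the NestinCre libraries, other immune cells had Gh in 0.403% of 496 nuclei (2 nuclei, median 1568 UMIs) and leptomeningeal cells and fibroblasts in 2.7% of 111 (3 nuclei, median 2378 UMIs). For Nes, 0.161% of NestinCre microglia and 0.530% of fl microglia had a UMI (2 and 6 nuclei), the shares of oligodendrocytes (0.0437%) and molecular layer interneurons (0.131%) lay below both, and those of granule cells (0.365%) and other neurons (0.253%) lay between them. In the fl libraries granule cells had a far lower share than microglia for Nes, 0.00342% (2 of 58400 nuclei). Thinned to 1000 UMIs, Nes remained in 1 of 8623 oligodendrocyte and 0 of 1172 microglial nuclei of the NestinCre libraries, and Gh in 5 and 0. The thinned microglial limit was 0.256%, too close to the thinned Gh share of granule cells (0.263%) to set them apart. It lay above those of other neurons (0.117%), molecular layer interneurons (0.0985%) and oligodendrocytes (0.058%). Thinning removes UMIs from deep nuclei and, by dropping shallow microglia, raises the limit. A fall of other neurons under it was thus favoured by construction, and nothing is read from it.

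Oligodendrocyte progenitors, which divide and give rise to oligodendrocytes, had 2 Nes UMIs and 1 Gh UMI in 356 NestinCre nuclei and 1 Nes UMI in 415 fl nuclei. Astrocytes had 0 Nes UMIs in 468 NestinCre nuclei (up to 6.41 per 1000 allowed) and in 773 fl nuclei, and 1 Gh UMI in NestinCre nuclei. Bergmann glia, the radial astroglia of the cerebellar cortex, had 0 Nes UMIs in 239 NestinCre nuclei (up to 12.6 per 1000 allowed) and 1 Gh UMI. The Nes limits for astrocytes and for Bergmann glia lay above the level of granule cells in both units (3.70 per 1000 nuclei and 1.58 CPM), at 2.1 CPM for astrocytes and 4.17 CPM for Bergmann glia, so a level like that of granule cells was not detectable in either class alone. For the classes together the limit was 4.24 per 1000 nuclei, above the granule level, and 1.4 CPM, below it. Newly formed oligodendrocytes and choroid plexus epithelium, with 26 NestinCre nuclei each, had 0 UMIs of either gene.

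**Figure D4:**
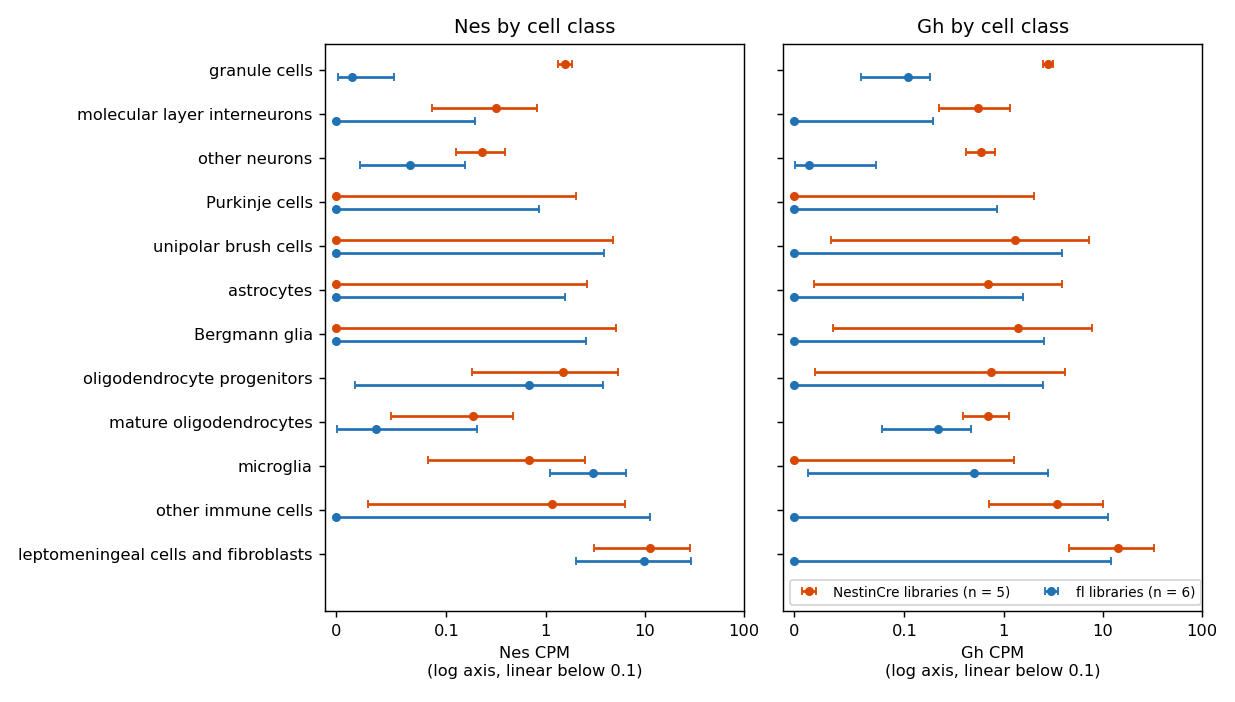
Nes (left) and Gh (right) in CPM in 12 classes, over the 5 NestinCre and the 6 fl libraries; bars are 95% Poisson intervals, and the axis is logarithmic above 0.1. Granule cells stand at 1.58 (NestinCre) and 0.0144 (fl) for Nes, classes with few nuclei have wide intervals, and Purkinje cells show 0 for both genes.

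Endothelial cells, which make nestin in the adult, were few and had the highest Nes level of any class. They had 11 Nes UMIs in 7 of 21 NestinCre nuclei, 4 UMIs in NestinCre EAE 4 and 7 in NestinCre naive 2, and 1 UMI in 18 fl nuclei. Gh was at 0 in both. Clustered without integration of the libraries, the endothelial class was larger, with 16 Nes UMIs in 10 of 62 NestinCre nuclei and 4 UMIs in 3 of 65 fl nuclei. Leptomeningeal cells and fibroblasts had 4 Nes UMIs in 111 NestinCre nuclei and 3 in 146 fl nuclei, and 5 Gh UMIs in 3 NestinCre nuclei against 0 in fl nuclei. Without integration this class had 2 Nes UMIs in 94 NestinCre nuclei and 0 in 158 fl nuclei, and 4 Gh UMIs in 2 NestinCre nuclei. In the fl libraries microglia were the named class with most Nes UMIs, 6 in 1133 nuclei (5.3 per 1000, 95% Poisson interval 1.94 to 11.5), of which 4 were in fl EAE 3, and NestinCre microglia had 2 (1.61, 0.195 to 5.81). The remaining immune nuclei had 1 Nes UMI and 3 Gh UMIs in 496 NestinCre nuclei, the Gh UMIs all in NestinCre EAE 1, and 0 of both in 180 fl nuclei. Without integration they had 2 Nes UMIs and 4 Gh UMIs in 1002 NestinCre nuclei and 0 of both in 203 fl nuclei.

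Summed by lineage over the NestinCre and the fl libraries, neurons had 3.45 and 0.0996 Nes UMIs per 1000 nuclei and 6.32 and 0.228 Gh UMIs. The oligodendrocyte lineage had 0.629 and 0.166 Nes UMIs and 1.68 and 0.498 Gh UMIs. Outside run 2 its Gh values were 0.499 (3 UMIs) and 0. Astroglia had 0 Nes UMIs in 707 and 1214 nuclei, and Gh at 2.83 per 1000 in NestinCre nuclei (2 UMIs) and 0 in fl nuclei. Immune cells had 1.72 and 4.57 Nes UMIs and 1.72 and 0.762 Gh UMIs per 1000. These values are pooled over nuclei and libraries, and the number of neuronal nuclei (53663 in the NestinCre libraries) far exceeded that of the other lineages, so their counting intervals are no test between genotypes or lineages. Vascular and meningeal cells had 114 (63.6 to 187) against 24.4 (6.65 to 62.4) Nes UMIs per 1000 nuclei, and 31.8 (17.8 to 52.4) against 11.3 (3.07 to 28.8) CPM. Of these 15 Nes UMIs of the NestinCre libraries 8 were in the naive library. In the EAE libraries alone the values were 70.7 (28.4 to 146) against 30.6 (6.31 to 89.5) per 1000 nuclei. The overlap of these pooled intervals is no test either.

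Ordered by the mean of the 5 NestinCre libraries in CPM, Nes ran from endothelial cells (64.0 ± 112, SD) over leptomeningeal cells and fibroblasts (12.6 ± 16.8), granule cells (1.57 ± 0.324), other immune cells (1.41 ± 3.14), oligodendrocyte progenitors (1.23 ± 1.77), microglia (0.759 ± 1.24), molecular layer interneurons (0.340 ± 0.231) and other neurons (0.256 ± 0.191) to mature oligodendrocytes (0.199 ± 0.265). No neighbours in that order differed beyond their spread. For Gh the order was leptomeningeal cells and fibroblasts (13 ± 13.9), granule cells (2.80 ± 1.65), Bergmann glia (2.00 ± 4.46), other immune cells (1.96 ± 4.38), astrocytes (1.16 ± 2.58), unipolar brush cells (1.08 ± 2.42), other neurons (0.553 ± 0.249), mature oligodendrocytes (0.498 ± 0.630), molecular layer interneurons (0.470 ± 0.477) and oligodendrocyte progenitors (0.463 ± 1.03). There too neighbours overlapped within their spread. Bergmann glia, astrocytes, unipolar brush cells and oligodendrocyte progenitors each had 1 Gh UMI, and other immune cells had 3, against 36 in other neurons. For Nes, other immune cells had 1 UMI, and oligodendrocyte progenitors and microglia had 2 each. The places of these classes in the orders thus rest on single molecules. Granule cells and the other neurons, which are not neighbours in either order, lay apart in every NestinCre library.

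The genes whose level followed Nes most closely were ranked by Pearson correlation of log2 CPM over the 11 libraries, as a description. The 10 highest were Glp1r (0.892), Ahnak (0.872), Ccl4 (0.871), Syt6 (0.869), Themis (0.861), Eva1b (0.860), Tlr3 (0.850), Acvrl1 (0.848), Lbp (0.847) and Gimap1 (0.844). Gh correlated at 0.763, and 110 genes other than Nes ranked above it. The 11 points share genotype, disease state and run, and the NestinCre EAE libraries also held more immune nuclei outside microglia than the fl EAE libraries (60 to 169 against 26 to 45).

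Genes around Nes and Gh and genes of their pathways, which the choice of the pair did not use, were compared between NestinCre EAE and fl EAE, with 4 libraries each, by edgeR's quasi-likelihood test on summed counts with run as a covariate and Benjamini-Hochberg adjustment over all genes tested. The lists of pathway genes were chosen with earlier results of these data known, so their calls are not independent of these data. Of 18362 genes tested in all nuclei, 643 were called (3.50%), 629 of them higher (3.43%) and 14 lower (0.0762%) in NestinCre EAE. Of 16204 tested in granule cells, 321 were called (1.98%), 300 of them higher (1.85%) and 21 lower (0.13%). Of 12667 tested in mature oligodendrocytes, 234 were called (1.85%), 193 of them higher (1.52%) and 41 lower (0.324%). In bulk sums over all nuclei, fewer nuclei of a type and less RNA per nucleus cannot be told apart.

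The growth hormone axis, from the hypothalamic hormones through the receptor to its targets, showed 1 call among 13 genes tested of 16 in all nuclei, and 0 of 13 in granule cells and 0 of 9 in mature oligodendrocytes. Cish, a feedback inhibitor that STAT5 induces, was higher in all nuclei of NestinCre EAE, with 1.77, 1.82, 2.29 and 2.43 CPM against 1.25, 1.24, 1.37 and 0.940 in fl EAE (log2 fold change 0.78 ± 0.17, SE, edgeR adjusted p = 0.0439). The groups did not overlap, and the call was lost in 12 of 15 alternatives, each that left out 1 library among them (edgeR adjusted p 0.056 to 0.149). In the same sums 5 of 8 T and NK cell markers and 3 of 8 phagocyte markers were called higher, and their part in the Cish call was not tested. The receptor gene Ghr (a mean of 62.0 CPM in NestinCre EAE and 63.6 in fl EAE, log2 fold change -0.06 ± 0.13), the growth factor gene Igf1 (0.19 ± 0.18) and the feedback gene Socs2 (0.15 ± 0.09) were not called. The list's median log2 fold change was 0.02 in all nuclei, against -0.002 over all genes tested. Of 10 other pituitary hormones and regulators, 4 were tested in all nuclei, 2 in granule cells and 2 in mature oligodendrocytes, with 0 called.

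Of the intermediate filament genes, the family of Nes, 11 of 11 were tested in all nuclei and in granule cells and 9 in mature oligodendrocytes, and only Gfap and Vim were called, both higher in NestinCre EAE. Gfap, the astrocyte filament, stood in granule cell sums at 20.2, 17.3, 15.4 and 8.88 CPM in NestinCre EAE and at 5.09, 5.07, 8.61 and 2.42 in fl EAE. The lowest NestinCre library lay just above the highest fl library (log2 fold change 1.57 ± 0.19, edgeR adjusted p = 0.0055). It was also called in all nuclei (1.5 ± 0.18, edgeR adjusted p = 0.00741) and in mature oligodendrocytes (1.27 ± 0.20, edgeR adjusted p = 0.00462), where in both the libraries of the groups overlapped. Without a run term the call was lost in all nuclei, granule cells and mature oligodendrocytes (edgeR adjusted p 0.0505, 0.088 and 0.143 in that order). Vim, the filament of glia, fibroblasts and leukocytes, was called in granule cells alone, at 15.9, 9.41, 12.0 and 5.83 CPM in NestinCre EAE and 5.62, 5.51, 3.84 and 3.44 in fl EAE (1.17 ± 0.22, edgeR adjusted p = 0.029), and the call was lost without a run term and without fl EAE 1, 2 or 3 or NestinCre EAE 3 (edgeR adjusted p 0.052 to 0.116). The neurofilament genes Nefl, Nefm and Nefh and the neuronal filament gene Ina had log2 fold changes of 0.05, 0.11, 0.10 and -0.02 in all nuclei and were not called.

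Markers of other cell types moved with some of these sums. In granule cell sums, the 7 astrocyte markers together stood at 83.1 to 114 CPM in NestinCre EAE and 70.4 to 114 in fl EAE, with Gfap the 1 marker called. The 8 markers of infiltrating phagocytes stood at 17.1 to 78.9 against 10.6 to 17.4 there, with Itgal called, and at 21.6 to 86.8 against 16.9 to 21.5 in mature oligodendrocytes, with Plac8, Ccr2 and Ly6c2 called. In all nuclei 3 of these 8 markers and 5 of 8 T and NK cell markers were called higher. Of the T and NK cell markers, 2 of 7 tested were called in granule cells, and 0 were tested in mature oligodendrocytes. The part of RNA from other cells in the calls of Gfap and Vim was not tested.

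**Figure D5:**
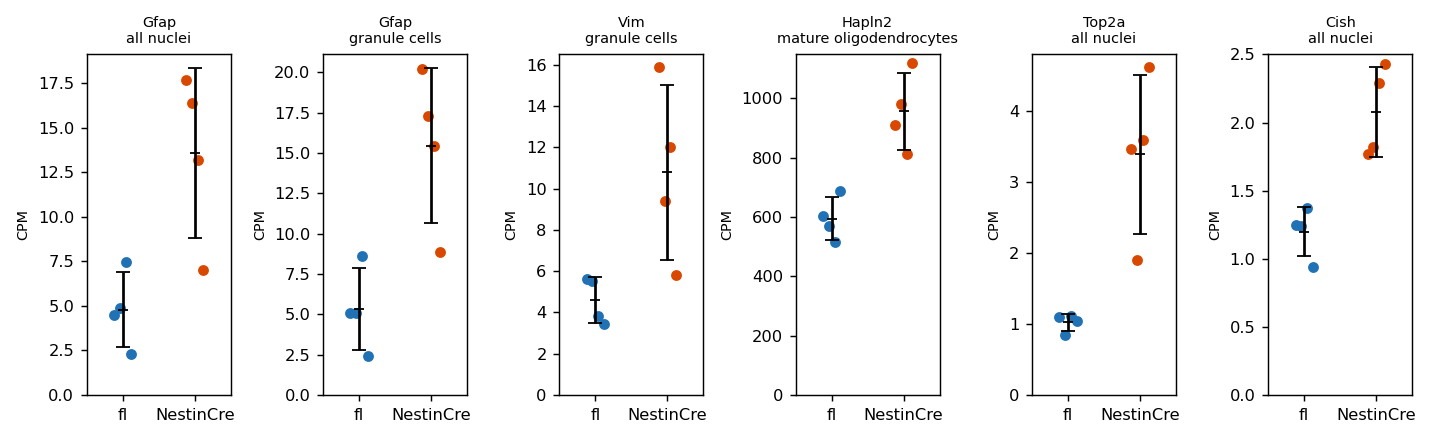
CPM in each fl EAE and NestinCre EAE library for the list genes that were called, in the sums named above each panel; points are libraries, with mean and SD (n = 4). All axes start at 0, and Gfap in granule cells had means of 5.3 in fl EAE and 15.5 in NestinCre EAE.

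Among 15 neural progenitor and proliferation genes, in which Nes itself is usually counted as a marker, 1 was called in all nuclei, 0 of 14 tested in granule cells and 0 of 8 in mature oligodendrocytes. Top2a, a DNA topoisomerase of dividing cells, stood at 3.47, 1.90, 3.59 and 4.62 CPM in NestinCre EAE and at 1.10, 0.841, 1.11 and 1.04 in fl EAE (log2 fold change 1.69 ± 0.24, edgeR adjusted p = 0.0091). The groups did not overlap. In the same sums the T and NK cell markers together stood at 18.2 to 27.1 CPM against 11.9 to 18.6 and the phagocyte markers at 50.7 to 149 against 38.1 to 46.3, and their part in this call was not tested. The progenitor transcription factor genes Sox2 (0.03 ± 0.25), Sox9 (-0.28 ± 0.12) and Pax6 (-0.16 ± 0.15) and the proliferation gene Mki67 (0.16 ± 0.22) were not called. The list's median in all nuclei was -0.11.

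Of the genes within 100 kb of Nes or Gh, 12 at each locus were in the matrices. Around Nes, 11 were tested in all nuclei, 10 in granule cells and 10 in mature oligodendrocytes, and Hapln2 was the 1 gene called. Hapln2, which encodes a link protein of the matrix at nodes of Ranvier and lies 39.0 kb from Nes, stood in mature oligodendrocytes at 911, 980, 814 and 1120 CPM in NestinCre EAE and at 604, 571, 515 and 688 in fl EAE. The groups did not overlap (log2 fold change 0.67 ± 0.10, edgeR adjusted p = 0.00404). In all nuclei its log2 fold change was 0.88 ± 0.19 (edgeR adjusted p = 0.0383), a call lost in 7 of 15 alternatives, among them those without fl EAE 1 or 2 or NestinCre EAE 1, 2 or 3 (edgeR adjusted p 0.0621 to 0.13). The mature oligodendrocyte markers, 7 in number, had 0 calls in either comparison, and the phagocyte markers that moved in these sums are given above. The nearest neighbour, Bcan, which encodes the proteoglycan brevican and lies 7.1 kb from Nes, was not called (0.16 ± 0.10 in all nuclei), nor were Crabp2, Isg20l2, Rrnad1 and Gm19439. Around Gh, 9 genes were tested in all nuclei, 8 in granule cells and 7 in mature oligodendrocytes, with 0 called. Of the neighbours nearest to Gh, the B cell receptor gene Cd79b, 9.5 kb away, had a log2 fold change of 1.71 ± 0.58 in all nuclei (edgeR adjusted p = 0.232) with means of 0.322 CPM in NestinCre EAE and 0.107 in fl EAE, and Tcam1, Smarcd2 and Psmc5 were not called. Scn4a and Prr29 were too low to test. Il12rb2 was not called in all nuclei (-0.02 ± 0.18), granule cells (-0.01 ± 0.17) or mature oligodendrocytes (-0.22 ± 0.34).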

How the data were processed

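The authors deposited raw UMI counts per gene and barcode for each library, made with Cell Ranger on GRCm39 with intronic reads counted (version 6.0.2 in the submitters' processing notes, 7.0.0 in the file headers of run 1). From these counts, nuclei with at least 200 genes (run 1) or 500 genes (runs 2 and 3) and under 5% mitochondrial UMIs were kept. Simulated doublets scored each nucleus, and 28434 nuclei, with the clusters that held over 40% called doublets, were left out. Nuclei were clustered (3000 variable genes, 40 principal components, Harmony over libraries, Leiden with leidenalg 0.10.2) without Nes, Gh and Il12rb2. A cluster was named where at least 3 markers of a type reached 20 CPM and 2 times a low reference level over clusters and the type led the next by 1 on the log2 scale. Nes and Gh are given as UMIs per 1000 nuclei and as CPM (scaled to 1000000 UMIs) with 95% exact Poisson intervals. For a count of 0 the limit is 3 counts, which is lower than the upper end of such an interval. Summed counts per library were tested in edgeR 4.0.16 (quasi-likelihood, TMM, filterByExpr, run as covariate, Nes and Gh left out of the counts of calls), with adjusted p under 0.05 as the threshold. In simulated counts with 200 changed genes in each comparison, 94% to 98% of those with a log2 change of 1 and 99% to 100% of those with 2 were recovered, with 13 to 19 false calls. As a share of all calls, the false ones exceeded the threshold of 0.05 in each comparison, so calls near the threshold are less sure. The changed genes were drawn only from genes with over 100 counts per library on average, and no run effect was simulated. Recovery of genes with fewer counts, several list genes among them, is therefore not known. DESeq2 1.42.0 was an alternative, with others on filters, doublets, depth, integration, runs and libraries.

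The members and lists were chosen with earlier results of these data known. Genes named are list members called in a comparison, up to 4 others per list by level or role, the 3 nearest neighbours on either side of each locus, and the 10 genes most like Nes among those with at least 50 UMIs (log2 with a prior count of 2). The study's methods give 4 mice per genotype for the EAE libraries, so that each stands for 1 mouse. Depth per library is 33996596 to 63871600 UMIs.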

Additional observations from a re-analysis of the deposited data

Results flagged for a closer look

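In the fl EAE group, the library fl EAE 4 stood apart from the other 3 for Gh, at 2.13 UMIs per 1000 nuclei where the others were at 0. Its gap to the nearest of the others was the whole range of the group, which passes Dixon's limit for 4 libraries, of which chance flags about 1 in 20. With the other 3 tied at 0 any count above 0 gives that ratio, so it is no test, and the value is a description.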

How the results depend on the processing

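Nes stayed higher in NestinCre EAE than in fl EAE, and Gh did where a ratio could be formed, under every alternative run, with a log2 ratio of means for Nes of 3.23 that became 3.34 with all deposited barcodes, 3.42 without nuclei of at least 6000 UMIs, 3.09 with nuclei thinned to 1000 UMIs, 3.35 in CPM, 3.06 in run 1 alone, and 2.99 to 3.68 with 1 library left out. For Gh it was 3.45, and 3.03 to 3.64 with 1 library left out, where without fl EAE 4, or in run 1 alone, fl was at 0 and gave no ratio. The pair was chosen by this contrast, so these ratios describe how far the values move with the settings and test nothing. The NestinCre EAE mean of Nes was 3.02 per 1000 nuclei with all barcodes, 3.02 with doublets kept and 1.09 thinned, and that of Gh was 2.23 thinned, where UMIs are removed by construction. The fl EAE mean of Gh ranged from 0 to 0.71 with 1 library left out, and fell from 0.533 to 0.2 without nuclei of 2 or more Gh UMIs, a setting added after seeing the data, as was leaving out run 2. On the log2 scale granule cells stood 0.183 (Nes) and 0.0494 (Gh) above other neurons per 1000 nuclei, 1.41 and 1.34 thinned, and 2.43 and 2.39 in CPM, and -0.0229 to 0.826 and -0.0691 to 0.146 with 1 library left out. Granule cells minus mature oligodendrocytes fell to 1.4 and 2.32 per 1000 nuclei when thinned. As means of the percentages in the 4 NestinCre EAE libraries, granule cells held 77.1% of Nes UMIs and 79.3% of Gh UMIs, 86.2% and 88.9% without nuclei of at least 6000 UMIs, and 89.3% of Nes UMIs thinned. The counts of genes called ranged, with 1 library left out, from 160 to 681 in all nuclei, 75 to 335 in granule cells and 86 to 228 in mature oligodendrocytes, lowest without fl EAE 1 in each, and without fl EAE 2 they were 272, 91 and 99. In all nuclei the count was also 379 without NestinCre EAE 1 and 279 without NestinCre EAE 3. In granule cells it was 183 and 206 without these, and 126 in mature oligodendrocytes without NestinCre EAE 1. Without a run term 195 genes were called in granule cells and 117 in mature oligodendrocytes. Same-numbered libraries of the genotypes correlated at -0.159 to 0.302 in their deviations, so the numbers were not taken to pair them. With the replicate number as a block, 581, 234 and 204 genes were called, and the calls of Cish (edgeR adjusted p = 0.0997) and Hapln2 in all nuclei (0.0847) were lost. Few UMIs of either gene limit what can be said of small classes.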
